A study of Mus musculus with 6 samples.

Results

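The genes described here are those of cholesterol and fatty acid synthesis in the mouse ventral prostate. The list names 39 symbols, which stand for 38 genes because Sc4mol is an older symbol of Msmo1. All non-control probes whose gene name, or symbol from a RefSeq accession, is on the list were taken, and for each gene the probe that was brightest on average was used, over both channels and all 6 arrays. Of the 38 genes, 37 had a probe, and Acaca was not measured here. The 37 genes have 69 probes, out of 41174 non-control probes on the array. All 37 were among the 16304 genes with a tested probe, and 63 of the 69 probes were tested.

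RNA of ventral prostates from FVB mice was hybridised to 6 two-colour Agilent whole mouse genome arrays. Cy5, read in the red channel, labelled RNA of fl26 mice (transgenic for 15-LOX2), of svb9 mice (transgenic for 15-LOX2 splice variant b) and of old wild type mice, with 2 arrays for each group. The transgenic mice were 2.5 months old and the old wild type mice 15 months old. Every array had wild type mice aged 2.5 months, labelled with Cy3, in the green channel. 15-LOX2 is a lipoxygenase, an enzyme that adds oxygen to arachidonic acid. Each transgene is represented by 1 line, and the promoter that drives it is not given in the sources used here. RNA was pooled, from 3 mice according to the sample labels and from 6 according to the design text, and the second array of each group is described as an independent set of samples. The sources do not say if 1 young wild type pool served several arrays. Without a dye swap, dye and group cannot be told apart against young wild type, whereas dye cancels between fl26 and svb9.

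Cholesterol is built from acetyl-CoA through mevalonate, the isoprenoid diphosphates, squalene and lanosterol, and fatty acids are built from acetyl-CoA by carboxylation, chain synthesis, elongation and desaturation. The SREBP transcription factors, encoded by Srebf1 and Srebf2, switch on the enzymes of both routes when sterols are low. Scap escorts the SREBPs out of the endoplasmic reticulum, and the Insig proteins hold the complex back there when sterols are plentiful. In the prostate, androgens are known to raise lipid synthesis through this pathway.

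SREBPs bind sterol regulatory elements in promoters, often beside CCAAT boxes bound by NF-Y, and E-boxes bind basic helix-loop-helix factors. The 250 bases before the annotated start were read from RefSeq promoters (GRCm38.p6), which hold 31 of the 38 genes in 41 windows. They were searched on both strands for TCACNCCAC, a form of the sterol regulatory element, for CCAAT and for CACGTG, the E-box. The NF-Y motif CCAAT was present for 25 of the 31 genes (80.6%), against 37.5% of all 27025 genes with a promoter in the table. It was present in 6 of 6 genes of the mevalonate arm and in 9 of 9 of the sterol arm. CACGTG was present for 6 of the 31 genes (19.4%), against 6.86% of all genes. TCACNCCAC was present for 1 of the 31 genes, Hmgcs1, against 1.22% of all genes. A match describes these letters and is not a binding site.

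Promoters of 4 members are shown because the results below turn on these genes. Hmgcs1 is the member that carries TCACNCCAC, Dhcr7 had the smallest adjusted p of the members in fl26, Hsd17b7 the smallest unadjusted p in svb9, and Idi1 the lowest mean in old wild type. Capitals mark TCACNCCAC, the NF-Y motif CCAAT, which reads as ATTGG on the other strand, and the E-box, and no matches overlap. Each sequence is written 5′ to 3′ in the direction of its gene.
Hmgcs1: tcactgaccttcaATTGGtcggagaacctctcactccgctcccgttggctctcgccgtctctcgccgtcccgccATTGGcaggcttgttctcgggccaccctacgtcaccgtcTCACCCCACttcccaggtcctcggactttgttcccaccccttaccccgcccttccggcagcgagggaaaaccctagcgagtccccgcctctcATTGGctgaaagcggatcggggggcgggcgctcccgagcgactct
Idi1: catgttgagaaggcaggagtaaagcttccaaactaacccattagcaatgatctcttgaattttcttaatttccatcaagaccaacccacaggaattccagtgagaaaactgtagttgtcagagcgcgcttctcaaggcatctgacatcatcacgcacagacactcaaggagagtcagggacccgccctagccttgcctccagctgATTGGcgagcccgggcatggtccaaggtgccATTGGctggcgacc
Hsd17b7: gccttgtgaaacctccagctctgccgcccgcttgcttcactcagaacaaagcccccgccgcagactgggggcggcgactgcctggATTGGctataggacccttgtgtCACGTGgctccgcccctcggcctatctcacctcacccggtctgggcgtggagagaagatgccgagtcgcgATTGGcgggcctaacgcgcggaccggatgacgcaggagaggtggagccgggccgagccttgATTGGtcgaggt
Dhcr7: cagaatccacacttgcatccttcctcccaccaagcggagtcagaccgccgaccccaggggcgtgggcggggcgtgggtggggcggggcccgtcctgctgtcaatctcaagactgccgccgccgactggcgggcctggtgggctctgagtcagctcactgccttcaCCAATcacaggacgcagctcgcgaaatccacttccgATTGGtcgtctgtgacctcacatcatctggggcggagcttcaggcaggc
The Hmgcs1 window is chr13:119690101-119690350 on the plus strand, with TCACNCCAC starting 137 bases before the start site and CCAAT boxes on the reverse strand on both sides of it. The Idi1 window is chr13:8885356-8885605 on the plus strand, with 2 CCAAT matches in its last 45 bases. The Hsd17b7 window is chr1:169969206-169969455 on the minus strand, with 3 CCAAT matches and 1 CACGTG. The Dhcr7 window is chr7:143829964-143830213 on the plus strand, the 3rd of its 3 windows in the table, with 1 CCAAT match in each orientation. The other 2 Dhcr7 windows hold no CCAAT, and 1 of them holds the E-box.

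Signal differed between the arrays before any ratio was taken. In the red channel the number of probes well above background was 27151 and 17623 on the fl26 arrays, 27833 and 14620 on the svb9 arrays, and 3219 and 13600 on the old wild type arrays. In the green channel, which holds young wild type RNA, it was 24837 to 30382. The red signal of 33 of the 37 lipid genes was well above background on both fl26 arrays, as it was for 33 on both svb9 arrays and for 7 on both old wild type arrays. Old wild type array 1 had 7 such genes and array 2 had 30. The green signal of 36 of the 37 was well above background on all 6 arrays. No lipid gene's spot was saturated.

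Markers of ventral prostate were detected in the young wild type RNA, though detection alone does not show the lobe. All 8 markers of luminal epithelium and all 5 of ventral prostate secretion were above background in young wild type RNA on all 6 arrays. Of 7 seminal vesicle and other-lobe markers, Svs2, Svs3a, Svs4, Svs6 and Pate4 were above background on no array. Svs5 and Tgm4 of that list were tested, and 1 of the 7 was above background in young wild type RNA on all 6 arrays. The 2 tested markers had median log2 ratios of -0.07 and 0.36 in fl26, 0.24 and 0.02 in svb9, and 0.18 and 0.41 in old wild type. Fat beside the prostate expresses the same lipid enzymes. Of 11 adipocyte markers, 7 were above background in young wild type RNA on all 6 arrays, and their medians of log2 ratios were 0.06 and 0.00 in fl26, 0.01 and 0.03 in svb9, and 0.00 and 0.04 in old wild type. Their summed signal (log2) was 10.58 to 10.75 in fl26, 10.64 to 10.65 in svb9, 10.77 to 11.07 in old wild type and 10.59 to 10.99 in young wild type. Of 4 brown fat markers, 2 were above background in young wild type RNA on all 6 arrays, and Ucp1 was above background nowhere. The 3 tested had medians of log2 ratios of -0.04 and 0.14 in fl26, -0.01 and 0.12 in svb9, and -0.04 and -0.06 in old wild type. In pooled tissue, fewer cells of a type and less RNA per cell cannot be told apart.

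**Figure D1:**
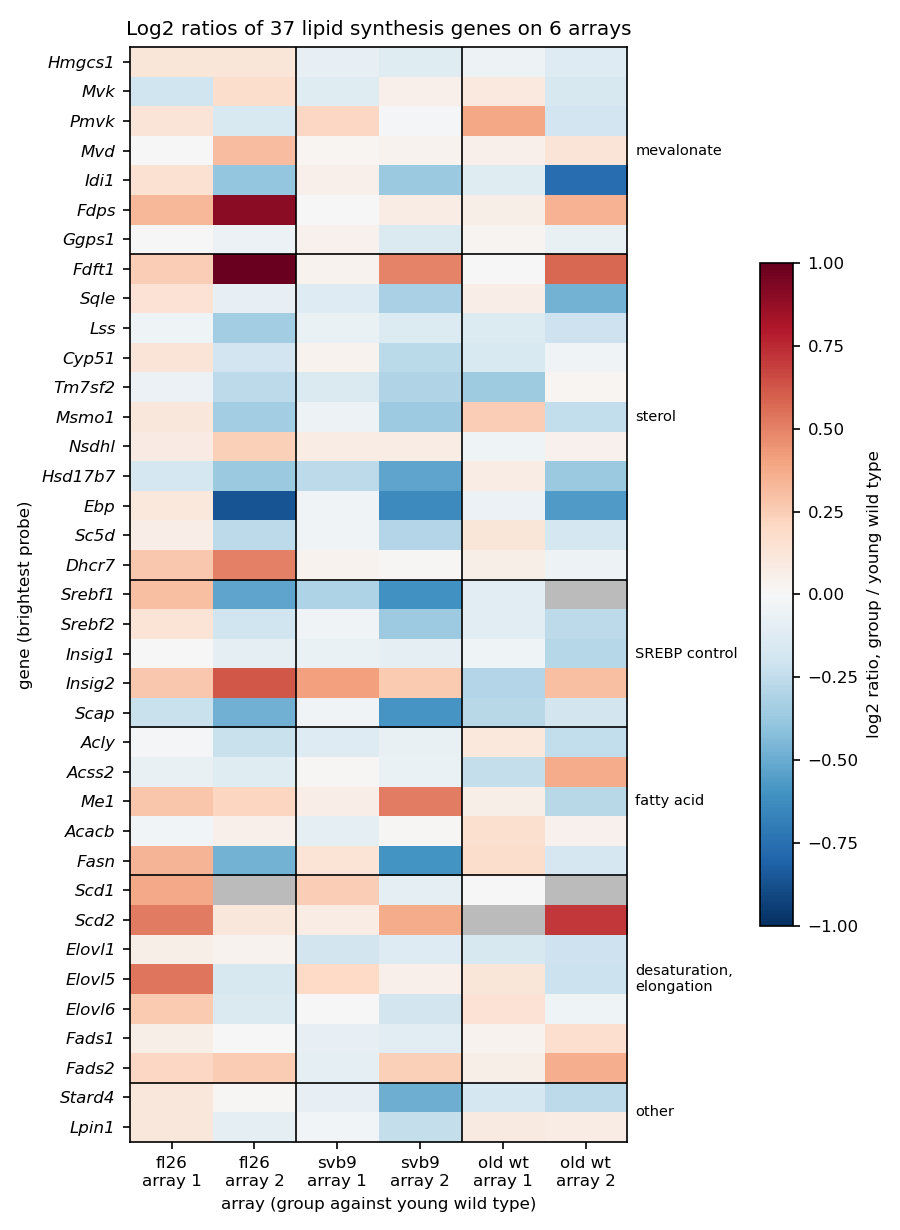
Log2 ratio of each group to young wild type for the 37 lipid synthesis genes (rows, ordered by step of the pathway) on the 6 arrays (columns, fl26 left, svb9 in the middle, old wild type right). The colour scale runs from -1 to 1, and grey cells were dropped as outlier spots. The second arrays of the groups are deeper in colour than the first, and Fdft1 and Fdps are the deepest red of the fl26 columns.

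Against young wild type, the lipid genes of the fl26 prostates were spread around no difference. The median log2 ratio of the 37 genes was 0.01, with 19 higher and 18 lower, beside a median of 0.00 for all genes tested. Means of single genes lay between -0.38 and 0.62. The largest were those of Fdps and Fdft1, neighbouring enzymes at the branch to squalene. By limma with Benjamini-Hochberg adjustment over 27860 probes, 0 of the 37 passed an adjusted p of 0.05, where 0.0503% of all probes did. At an unadjusted p under 0.05 there were 5 of 37 (13.5%), against 10.2% of all probes and 11.9% of all genes tested, at 1 probe each. Of these, 4 were higher (5.75% of all probes) and 1 was lower (4.42% of all probes).

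Fdps makes farnesyl diphosphate, the substrate of squalene synthase and of protein prenylation. Its log2 ratio was 0.33 and 0.90 in fl26, -0.00 and 0.07 in svb9, and 0.06 and 0.35 in old wild type. Both fl26 arrays were above young wild type, the first fl26 array just below the higher old wild type array and both above the svb9 arrays. The fl26 mean was 0.62 ± 0.15 (SE, n = 2 arrays), a 1.53-fold ratio with an adjusted limma p of 0.297. With arrays of 1 number taken as a block (the replicate block), its adjusted p was 0.0272. A dimmer second probe of Fdps gave 0.18 and -0.15 in fl26, so the 2 probes of the gene disagree by over 1.5-fold.

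Fdft1, squalene synthase, commits farnesyl diphosphate to sterols. Its log2 ratio was 0.24 and 0.99 in fl26, 0.03 and 0.50 in svb9, and -0.00 and 0.58 in old wild type. The second array was the higher one in every group, and the groups overlap. The fl26 mean was 0.62 ± 0.22 (SE, n = 2 arrays) with an adjusted limma p of 0.439. With the replicate block its adjusted p was 0.0167. Fdps and Fdft1 were the 2 of 37 lipid genes (5.41%) that passed with that block, both higher, where 3.59% of all probes did.

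Dhcr7, which makes cholesterol from its last precursor, had log2 ratios of 0.27 and 0.50 in fl26, 0.04 and 0.01 in svb9, and 0.06 and -0.05 in old wild type. Both fl26 arrays were above all 4 arrays of the other groups. The fl26 mean was 0.38 ± 0.09 (SE, n = 2 arrays), and its adjusted limma p of 0.279 was the smallest of the members in this comparison. A dimmer second Dhcr7 probe gave -0.01 and 0.04 in fl26. Sc5d, the desaturase just before it, had 0.07 and -0.26 in fl26, whereas its dimmer second probe had 0.27 and 0.17, so its probes disagree in direction. Ebp, the sterol isomerase, had 0.10 and -0.86 in fl26.

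The controllers of SREBP included 1 higher and 1 lower gene at an unadjusted p under 0.05. Insig2, a retention protein, had log2 ratios of 0.27 and 0.62 in fl26, 0.41 and 0.26 in svb9, and -0.29 and 0.30 in old wild type. All 4 transgenic arrays were above young wild type, and the old wild type arrays lay on both sides of it. The fl26 mean was 0.44 ± 0.16 (SE, n = 2 arrays), with an adjusted limma p of 0.430, and its second probe gave 0.14 and -0.48. Scap, the escort protein, had -0.22 and -0.48 in fl26, -0.03 and -0.59 in svb9, and -0.28 and -0.18 in old wild type, so it was below young wild type on all 6 arrays. Its fl26 mean was -0.35 ± 0.14 (SE, n = 2 arrays), with an adjusted limma p of 0.479. Insig1, a classical SREBP target, had 0.00 and -0.09 in fl26, -0.07 and -0.10 in svb9, and -0.04 and -0.28 in old wild type.

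The 7 desaturases and elongases all had an fl26 mean above 0, with a median of 0.18. Scd2, a stearoyl-CoA desaturase, had 0.52 and 0.11 in fl26, with a mean of 0.31 ± 0.13 (SE, n = 2 arrays) and an adjusted limma p of 0.512. Without fl26 array 1, 3 of the 6 with a value on fl26 array 2 were higher. With the deposited log ratios of the scanner software, 6 of 7 were higher. None of the 7 had an unadjusted p under 0.05. The remaining lower genes of the named set in fl26 were Hsd17b7 (-0.27 ± 0.13), Lss (-0.19 ± 0.09), Tm7sf2 (-0.16 ± 0.11) and Acly (-0.12 ± 0.11; SE, n = 2 arrays). Hsd17b7 reduces a ketosteroid intermediate of the sterol arm, Lss closes the lanosterol rings, Tm7sf2 is a sterol reductase and Acly makes cytosolic acetyl-CoA. A second Lss probe had a mean of the opposite sign, 0.05.

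**Figure D2:**
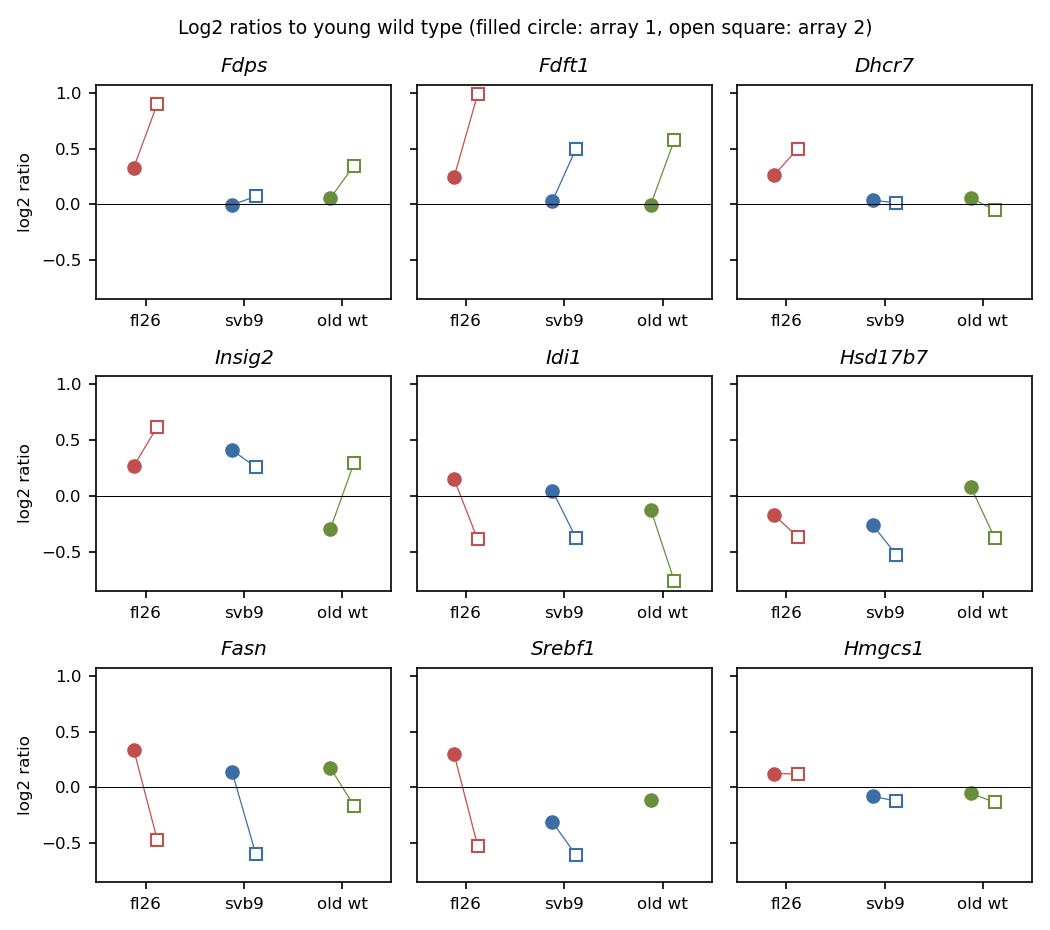
Log2 ratio to young wild type of 9 lipid synthesis genes in fl26, svb9 and old wild type. Filled circles are array 1 and open squares array 2, joined by a line, and Srebf1 has no value on old wild type array 2. Fdps and Dhcr7 are higher on both fl26 arrays than on both svb9 arrays, while Fasn and Idi1 fall on both sides of 0 in fl26.

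In svb9 prostates, 25 of the 37 lipid genes had a mean below young wild type. The other 12 were higher (32.4%, against 49.7% of all genes tested). With all probes of a gene averaged, 14 of 37 were higher and the members' median was -0.042. With the brightest probes the figures were as follows. The median log2 ratio was -0.10, beside -0.00 for all genes tested, and single means lay between -0.46 and 0.33. No member passed the adjusted limma test, as was so for 0% of all probes, and the smallest adjusted p of a member was 0.980. Unadjusted p under 0.05 was found for 2 of 37 (5.41%), against 4.45% of all probes and 5.20% of all genes tested, at 1 probe each. Both, Hsd17b7 and Stard4, were lower (2.33% of all probes were), and 0 were higher (2.12% of all probes).

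Hsd17b7 had log2 ratios of -0.26 and -0.53 in svb9, -0.17 and -0.37 in fl26, and 0.08 and -0.37 in old wild type. The 4 transgenic arrays were all below young wild type, and the old wild type arrays lay on both sides. The svb9 mean was -0.39 ± 0.13 (SE, n = 2 arrays), with an unadjusted limma p of 0.0226. Stard4, a carrier of cholesterol between membranes, had -0.08 and -0.49 in svb9, and 0.11 and 0.01 in fl26. Its svb9 mean was -0.28 ± 0.11 (SE, n = 2 arrays), with an unadjusted limma p of 0.0382. The other 2 Stard4 probes had svb9 means of -0.06 and -0.10.

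Srebf1, the SREBP of fatty acid synthesis, had the lowest svb9 mean, -0.46 ± 0.20 (SE, n = 2 arrays), from -0.31 and -0.61. In fl26 it was 0.30 and -0.52, and in old wild type -0.11 on the array that gave a value, the second spot being dropped as an outlier. Srebf2, the SREBP of cholesterol synthesis, had -0.03 and -0.36 in svb9, 0.14 and -0.20 in fl26, and -0.11 and -0.26 in old wild type. The lower svb9 genes also included Ebp, with a mean of -0.34 ± 0.26, and Scap, with -0.31 ± 0.14 (SE, n = 2 arrays). The higher ones were Insig2 (0.33 ± 0.16), Me1 (0.29 ± 0.13), Fdft1 (0.27 ± 0.22), Scd2 (0.22 ± 0.13) and Elovl5 (0.13 ± 0.17; SE, n = 2 arrays). Me1, which supplies NADPH, had 0.07 and 0.51 in svb9. The second Insig2 probe had an svb9 mean of -0.21, the opposite sign.

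In old wild type prostates, the median log2 ratio of the lipid genes was -0.03, beside -0.02 for all genes tested, with 15 of 37 higher (40.5%) against 44.3% of all genes. No member passed the adjusted limma test, nor did any of 27626 probes (0%). Unadjusted p under 0.05 was found for 2 of 37 (5.41%), against 11.4% of all probes and 12.6% of all genes tested, at 1 probe each. These were Scd2, higher as were 6.85% of all probes, and Elovl1, an elongase of very long chains, lower as were 4.58%.

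Scd2 had a log2 ratio of 0.70 on old wild type array 2, and its spot on array 1 was dropped as an outlier. The mean of 0.70 ± 0.19 therefore rests on 1 array, its error is taken from the spread of the other groups, and the adjusted limma p was 0.285. With outlier spots kept it was 1.62, and with arrays centred on the median instead of by loess, which put the median of all lipid genes at -1.17, it was -1.09. Elovl1 had -0.16 and -0.20 in old wild type, -0.18 and -0.13 in svb9, and 0.06 and 0.03 in fl26. The old wild type mean of Elovl1 was -0.18 ± 0.07 (SE, n = 2 arrays), with an adjusted limma p of 0.406. The fl26 arrays of Elovl1 were above the other 4.

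Idi1, which interconverts the isoprenoid diphosphates, had the lowest old wild type mean. Its log2 ratio was -0.12 and -0.76 in old wild type, 0.15 and -0.39 in fl26, and 0.05 and -0.37 in svb9. In each group array 2 was the lower, and only the old wild type arrays were both below young wild type. The old wild type mean was -0.44 ± 0.20 (SE, n = 2 arrays), with an adjusted limma p of 0.472. With the replicate block the adjusted p of Idi1 was 0.0294, and it was the 1 of 37 lipid genes that passed, where 4.38% of all probes did. A second Idi1 probe gave -0.04 and 0.07 in old wild type, so its mean had the opposite sign.

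Of all 15019 genes with values on both old wild type arrays, 3694 were higher on both and 5123 were lower on both. Of the 34 such lipid genes, 6 were higher on both and 10 were lower on both, each a smaller share than of all genes. Among the higher ones were Fads2 (0.21 ± 0.11), Fdps (0.20 ± 0.15) and Mvd (0.09 ± 0.09), and among the lower ones Ebp (-0.31 ± 0.26), Scap (-0.23 ± 0.14) and Srebf2 (-0.18 ± 0.12; SE, n = 2 arrays). Acacb and Fads1 were also higher on both arrays and Stard4 lower, none with a red signal well above background. Fads1 and Fads2 desaturate polyunsaturated fatty acids, the precursors of lipoxygenase substrates. In old wild type, the red signal of Mvk, Cyp51, Insig1, Acacb, Elovl6, Fads1 and Stard4 was not well above background on either array, while their green signal was. No fold is given for these genes except Stard4, which was 1.16-fold lower than young wild type with an adjusted limma p of 0.502. Their old wild type log2 ratios given elsewhere set a red signal near background against young wild type.

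**Figure D3:**
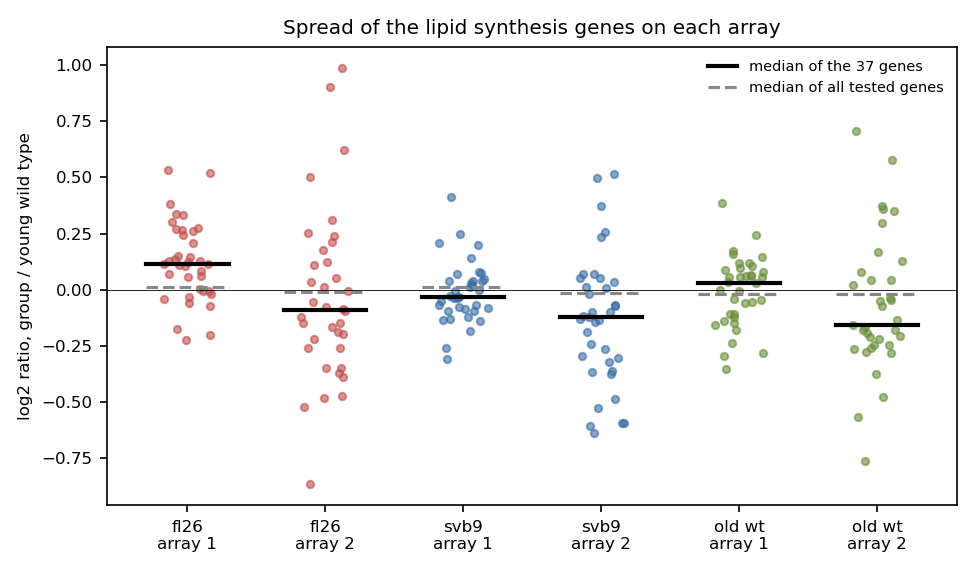
Log2 ratios to young wild type of the 37 lipid synthesis genes on each array (points), with their median (black line) and the median of all tested genes (grey dashed line). The members' medians run from -0.16 on old wild type array 2 to 0.11 on fl26 array 1, and the all-gene medians stay within 0.02 of 0.

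The comparison of the transgenic lines, in which the dye cancels, had the more even direction. No array held both lines, so it is a difference of ratios to young wild type. Any variation between young wild type pools stays in it. The mean was higher in fl26 than in svb9 for 30 of 37 lipid genes (81.1%), against 51.7% of all genes tested, and the median difference was 0.09 on the log2 scale, beside 0.00 for all genes. This count rests on fl26 array 1: without it 17 of 36 were higher in fl26. It was 31 of 37 without fl26 array 2, 30 of 37 without svb9 array 1 and 23 of 37 without svb9 array 2. With the date of image extraction as a term it was 24 of 37. No member passed the adjusted limma test (0% of all probes did), and 2 of 37 (5.41%), Fdps and Dhcr7, both higher, had an unadjusted p under 0.05, against 2.18% of all probes (1.15% higher and 1.03% lower). Of all genes tested, at 1 probe each, 2.59% had an unadjusted p under 0.05. On the date of image extraction that both lines share, fl26 array 1 was above svb9 array 1 for 30 of 37 members, with a median difference of 0.14, beside 0.01 for all genes. That pair again uses fl26 array 1, on which the count rests. Old wild type, too, had a higher mean than svb9 for 27 of 37 lipid genes (73.0%, against 46.5% of all genes). The median of those differences was 0.03, beside -0.01 for all genes. Compared with fl26, old wild type was higher for 16 of 37 (43.2%, against 45.7% of all genes).

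Fdps differed by 0.58 ± 0.21 (SE, 2 against 2 arrays), with a 95% interval of 0.08 to 1.08 and an unadjusted limma p of 0.0288. Dhcr7 differed by 0.36 ± 0.12, with an interval of 0.06 to 0.65 and an unadjusted limma p of 0.0242. Hmgcs1, the entry enzyme of the mevalonate arm, had log2 ratios of 0.12 and 0.12 in fl26 and -0.08 and -0.12 in svb9, a difference of 0.22 ± 0.10. Sqle, which epoxidises squalene, had 0.15 and -0.08 in fl26 and -0.13 and -0.32 in svb9, a difference of 0.26 ± 0.20. Stard4 differed by 0.35 ± 0.15 between the lines. On the lower side Acss2, an acetyl-CoA synthetase, differed by -0.07 ± 0.20, from -0.07 and -0.12 in fl26 and 0.01 and -0.07 in svb9.

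Both fl26 arrays lay above both svb9 arrays for 8 of 36 genes with all values (22.2%), against 12.7% of all genes, and below them for 1 (2.78%), against 11.6%. Together this is 25% of the members with no overlap, against 24.3% of all genes. All 7 desaturases and elongases had a mean higher in fl26 than in svb9, with a median difference of 0.15. Without fl26 array 1 the mean was higher for 3 of 6 of them. The 95% intervals of the differences had half-widths of 0.24 to 0.89 with a median of 0.41, and for 34 of 37 genes the whole interval lay within a 2-fold difference.

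**Figure D4:**
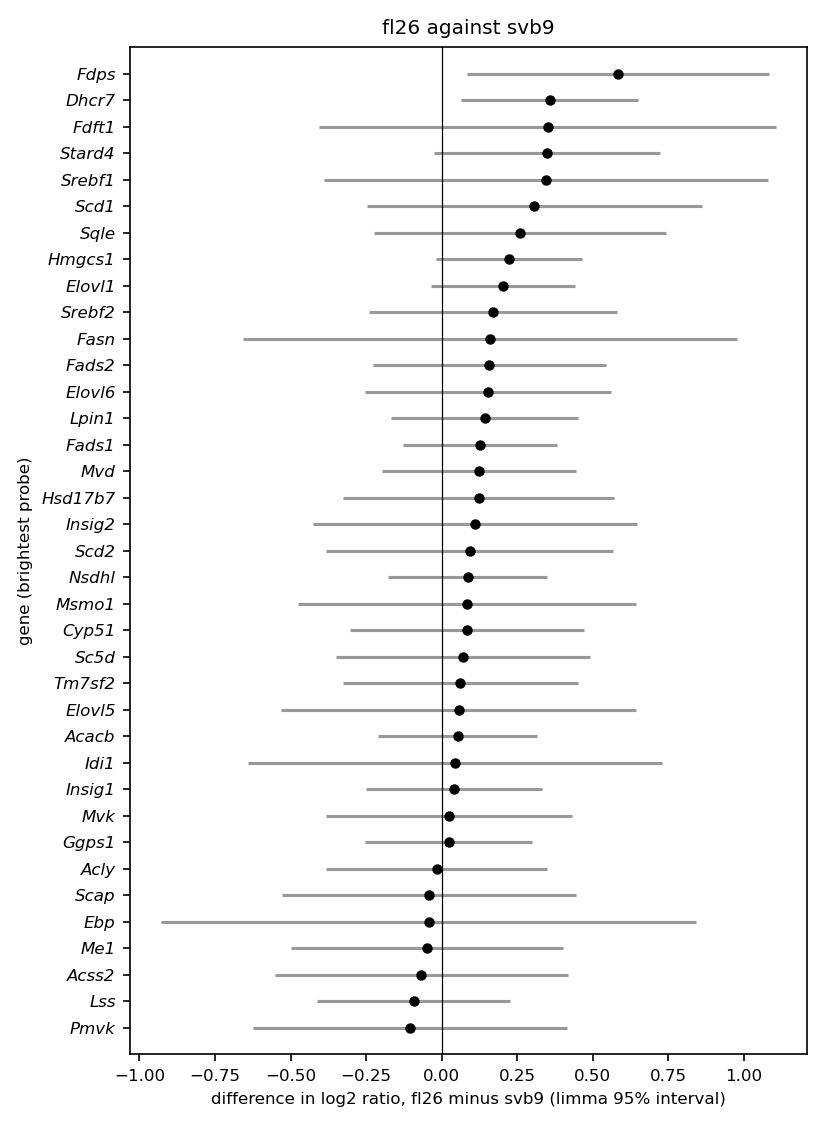
Difference in mean log2 ratio between fl26 and svb9 for each lipid synthesis gene (points), with limma 95% intervals (grey bars), ordered by size. For 30 of 37 genes the point is above 0, and the intervals of Fdps and Dhcr7 do not reach 0.

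The second array of each group was below the first for most lipid genes. The log2 ratio was lower on array 2 than on array 1 for 27 of 36 lipid genes in fl26 (75%, against 52.7% of all genes), for 27 of 37 in svb9 (73.0% against 55.9%) and for 23 of 34 in old wild type (67.6% against 52.6%). For 17 of 34 genes (50%) array 2 was lower in all 3 groups, against 26.1% of all genes. They include Hmgcs1, Idi1, Sqle, Lss, Msmo1, Hsd17b7, Ebp, Sc5d, Srebf2, Insig1, Fasn and Elovl6. In 4 of 34 genes (11.8%, against 17.2%), Mvd, Fdps, Fdft1 and Fads2, array 2 was higher in all 3 groups.

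The median absolute gap between the arrays of a group was 0.27 on the log2 scale for the lipid genes of fl26, 0.19 for those of svb9 and 0.27 for those of old wild type, against 0.18, 0.13 and 0.16 for all genes. Fasn, the fatty acid synthase, had a wider gap than the members' median in each group. Its log2 ratio was 0.34 and -0.47 in fl26, 0.14 and -0.59 in svb9, and 0.17 and -0.16 in old wild type. Array 1 was above young wild type and array 2 below it in each group, and the group means were -0.07, -0.23 and 0.01. Ebp did likewise in fl26, with 0.10 and -0.86, and had -0.04 and -0.64 in svb9 and -0.06 and -0.57 in old wild type. Elovl6, which elongates palmitate, had 0.26 and -0.15 in fl26, -0.00 and -0.19 in svb9, and 0.14 and -0.04 in old wild type. Scd1, another stearoyl-CoA desaturase, had 0.38 on fl26 array 1, 0.25 and -0.10 in svb9, and -0.00 on old wild type array 1, its spots on the second fl26 and old wild type arrays being dropped as outliers.

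The 2 arrays of a group had opposite signs for 18 of 36 lipid genes in fl26 (50%, against 45.5% of all genes), 11 of 37 in svb9 (29.7% against 43.3%) and 18 of 34 in old wild type (52.9% against 41.3%). The median log2 ratio of the members was 0.11 and -0.09 on the fl26 arrays, -0.03 and -0.12 on the svb9 arrays, and 0.03 and -0.16 on the old wild type arrays. The sterol arm had 0.10 and -0.26 in fl26, -0.04 and -0.30 in svb9, and -0.00 and -0.18 in old wild type.

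Markers of other cells also differed between the arrays of a group. The median log2 ratio of 5 ventral prostate secretory markers was -1.16 and 0.36 in fl26, -1.22 and 0.39 in svb9, and 4.37 and 0.997 in old wild type. Their summed signal (log2) was 16.22 and 17.07 in fl26, 16.35 and 17.59 in svb9, 20.88 and 18.02 in old wild type, against 12.98 to 17.79 in young wild type. The young wild type value of 12.98 was on old wild type array 1, the array with the median ratio of 4.37. On the other arrays young wild type had 15.93 to 17.79. The median of 6 fibroblast markers was 0.77 and -0.13 in fl26, 0.24 and -0.16 in svb9, and -0.10 and -0.31 in old wild type. Their summed signal (log2) was 13.00 and 12.63 in fl26, 12.63 and 12.76 in svb9, 13.22 and 12.10 in old wild type, against 12.52 to 13.54 in young wild type. The part of these cells in the lipid gene values was not tested.

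**Figure D5:**
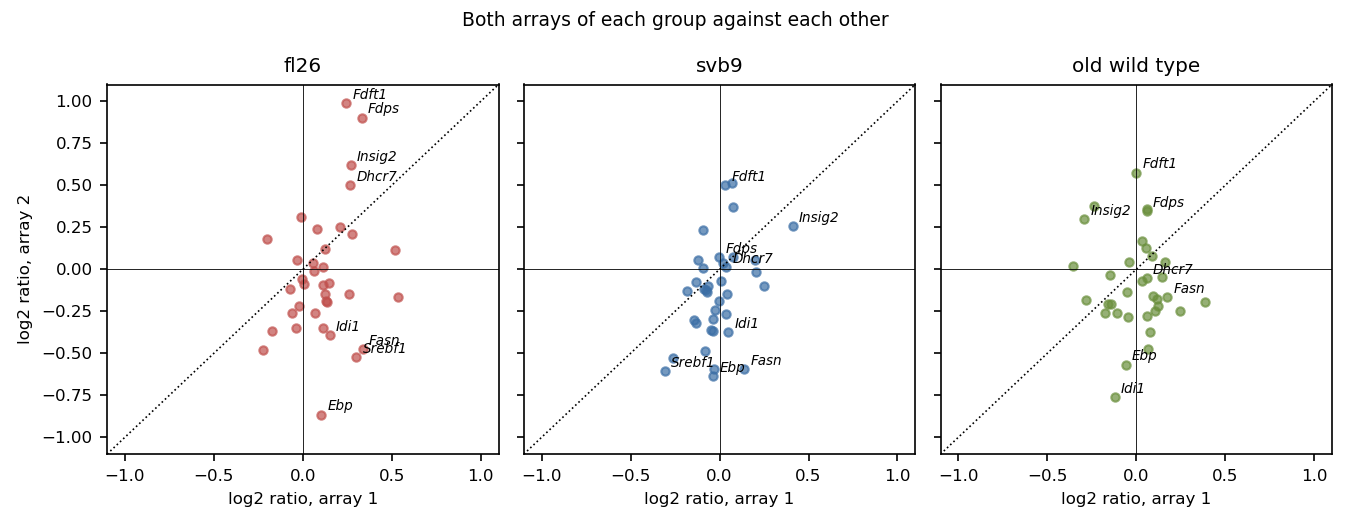
Log2 ratio on array 1 (horizontal) against array 2 (vertical) for the lipid synthesis genes in fl26, svb9 and old wild type, with the dotted line of equality. In each group more points lie below the line than above it, 27 of 36 in fl26, and Fdft1 lies above it in all 3.

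Genes of the same pathways outside the member list were followed in 5 lists of 56 genes, of which 52 were tested. In each comparison 0 of the 52 passed the adjusted limma test. At an unadjusted p under 0.05 there were 5 in fl26, 3 in svb9, 7 in old wild type and 2 between fl26 and svb9, beside 10.2%, 4.45%, 11.4% and 2.18% of all probes in the same order. Of all genes tested, at 1 probe each, it was 11.9%, 5.20%, 12.6% and 2.59%. The median log2 ratio of the 52 genes was -0.02 for fl26, -0.01 for svb9 and -0.02 for old wild type. By list, the fl26 medians were 0.15 for 9 genes of sterol transport and storage, 0.023 for 9 further sterol steps, -0.037 for 9 glycerolipid steps, -0.062 for 14 further fatty acid steps and -0.17 for 11 further controllers of SREBP.

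Acsl3, which activates long-chain fatty acids, had log2 ratios of 0.67 and 0.65 in fl26, 0.15 and 0.06 in svb9, and 0.00 and 0.11 in old wild type. Both fl26 arrays were above the other 4, and the 2 were close to each other. The fl26 mean was 0.66 ± 0.07 (SE, n = 2 arrays), a 1.58-fold ratio with an adjusted limma p of 0.0996. With the replicate block its adjusted limma p was 0.0146, and it was the 1 of 52 that passed in fl26, where 3.59% of all probes did. With the date as a term its adjusted limma p was 0.0615. Acsl3 differed by 0.55 ± 0.10 between fl26 and svb9, with an unadjusted limma p of 0.00169.

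Rnf139, a ubiquitin ligase of the sterol control machinery, had 0.29 and 0.47 in fl26, 0.28 and 0.18 in svb9, and -0.22 and -0.42 in old wild type. The 4 transgenic arrays were above young wild type and both old wild type arrays below it, with adjusted limma p values of 0.290 for fl26, 0.980 for svb9 and 0.271 for old wild type. Npc2, which binds cholesterol in lysosomes, had 0.71 on old wild type array 1, its spot on array 2 being dropped. This value rests on 1 array with the spread of the other groups, and its adjusted limma p was 0.393. With the replicate block the estimate was 1.002 with an adjusted limma p of 0.0334, and with the date as a term that p was 0.176. Abca1, the cholesterol exporter, had 0.41 and 0.24 in fl26, 0.40 and 0.01 in svb9, and 0.05 and -0.21 in old wild type.

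Of the 37 lipid genes, 19 had more than 1 tested probe. The probes of a gene differed in the sign of the mean for 11 genes of the 19 in fl26, for 11 in svb9 and for 10 in old wild type. Of the genes described above, dimmer probes in fl26 had means of 0.063 for Insig1, 0.032 for Srebf2, 0.058 for Idi1 and 0.030 for Acss2, opposite in sign to their brightest probes. In svb9 they had -0.033 for Fdps, 0.083 for Lss, 0.085 for Idi1, 0.054 for Acss2, 0.020 for Fasn and 0.14 for Sc5d. In old wild type they had -0.17 for Insig2, 0.035 for Insig1, 0.12 and 0.073 for Lss, 0.14 and 0.0083 for Stard4 and 0.088 for Sc5d. Between fl26 and svb9 the dimmer probe differed by -0.015 for Dhcr7, -0.13 for Hsd17b7, 0.059 for Lss, -0.026 for Idi1 and -0.062 for Fasn. Against young wild type the 95% intervals of single genes had half-widths of 0.17 to 0.63 in fl26 and svb9, with a median of 0.29, and up to 0.73 in old wild type. The interval lay within a 2-fold change for 35 genes in fl26, for 37 in svb9 and for 36 in old wild type.

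Other models of the spread were read against the same background. With the replicate number as a block, 0 lipid genes passed in svb9 (0.0431% of all probes did) and 0 between fl26 and svb9 (0.0359%). With the date of image extraction as a term, 0 passed in any of the 4 comparisons, against 0.434% of all probes in fl26, 0% in svb9, 0.0398% in old wild type and 0.00718% between fl26 and svb9. With a trend in the variance 0 passed likewise, against 0.226% in fl26, 0% in svb9, 0.637% in old wild type and 0.0144% between fl26 and svb9.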

How the data were processed

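Per the file headers, scans were read by Agilent's Feature Extraction software, version A.7.5.1. The deposited files hold, for both channels, the spot and background intensity as scanned, and a log10 ratio of red over green that the software had corrected for background and dye, per the file headers. In the deposited table of the whole series the same log10 ratios are rounded, with medians of 0 on every array.

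From the spot intensities, log2 ratios were computed with limma 3.58.1 in R 4.3.3 (with statmod 1.5.0 and the package data.table, whose version was 1.17.8). Control and outlier spots were dropped and saturated ones were not. The steps were normexp background correction (offset 50), loess within each array, and the mean over spots of a probe. Of the probes, 27860 were tested, those that at least 1 group measured well above background on its 2 arrays in 1 and the same channel. A model of 3 group means was fitted with limma to all 6 arrays and moderated across probes, with Benjamini-Hochberg adjustment over all tested probes and a threshold of 0.05. The model was also run on simulated data whose arrays deviated independently. That run cannot show how the model does when arrays of 1 number deviate together, as described below. Testing a mean against 0 takes account of how young wild type pools vary only where the pools differed between the arrays. The sources do not say if they did. Precision is limited by the number of arrays. Each SE is limma's moderated error, so "n = 2 arrays" counts the arrays behind the mean and not those behind the spread. A missing value is a dropped outlier spot, and none was imputed. Columns of other samples numbered 0.

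Array numbers 1 and 2 recur in every group, and no label calls this a pairing. Across 26016 probes, which are not independent, arrays of 1 number deviated together from their group means (r = 0.59 between fl26 and svb9, r = 0.33 between old wild type and fl26, r = 0.17 between old wild type and svb9). The value with the number as a block is therefore given where it changes a call. Image extraction fell on 3 dates, each shared by a pair of arrays: fl26 1 with svb9 1, fl26 2 with old wild type 1, and svb9 2 with old wild type 2.

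The members, gene lists and tests were chosen with earlier results of these data known. Named are, in each comparison, up to 5 members of largest rise and 5 of largest fall with 1 sign on both arrays (for fl26 against svb9, with no overlap), and Hmgcs1, Sqle, Insig1, Srebf1, Srebf2, Fasn, Scd1 and Elovl6. Ebp, Sc5d, Me1 and Elovl1, given in places outside that rule, were chosen after their values were seen. A second probe is given where it differs in sign or by over 1.5-fold. Of other pathway genes, at most 2 a list are named. RefSeq promoters of 250 bases (GRCm38.p6) were matched by symbol. Lists of luminal, basal, ventral secretory, other-lobe, adipose, muscle, macrophage, endothelial, fibroblast and erythrocyte markers were read beside the members. Alternatives tried were other background corrections, normalizations, probe filters, spot rules, variance models, the block, the date, the groups' own arrays, each array left out, and all probes of a gene averaged.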

Additional observations from a re-analysis of the deposited data

How the results depend on the processing

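The count of lipid genes past the threshold was 0 in every comparison and under every alternative run, except with the replicate number as a block (2 in fl26 and 1 in old wild type). The count of all probes called in fl26, 14 in the analysis above, was 0 with no background correction, 6 with the deposited log ratios, 0 with median centring, 63 with a variance trend, 1001 with the block, 121 with the date as a term, 0 with fl26 arrays alone, and 0 to 1 with an array left out. In svb9 it was 12 with the block. In old wild type it was 3 with a strict filter, 32 with outlier spots kept, 176 with a variance trend, 1211 with the block, 11 with the date, 53 with its own arrays alone, and 0 to 2 with an array left out. Between fl26 and svb9 it was 4 with a variance trend, 10 with the block and 2 with the date. All probes of a gene averaged gives no count of probes.

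The median log2 ratio of the members with median centring was 0.21 in fl26 (33 of 37 higher), -1.17 in old wild type (1 of 37) and 0.29 between fl26 and svb9 (37 of 37). That centring put all-gene medians of the arrays at -0.74 to 0.49. In svb9 the members' median was -0.17 with the deposited log ratios, and -0.12 to -0.031 with an array left out. The causes were not tested. Members also changed sign, for 12 of 37 genes in fl26 without fl26 array 2 and for 13 of 36 in old wild type without old wild type array 2. The block changed no other call of a lipid gene. Red signal was well above background on both old wild type arrays for 7 of the 37 genes, which limits those values.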

Other observations

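In the separate channels the gap between the arrays of a group varied by group. The red signal of fl26 was lower on array 2 than on array 1 for 27 of 36 lipid genes (75%), against 53.6% of all genes. It was lower for 23 of 37 in svb9 (62.2%, against 52.2%) and for 14 of 34 in old wild type (41.2%, against 38.9%), so in old wild type most red signals were higher on array 2. The green signal of young wild type was higher on the second array than on the first for 22 of 36 lipid genes beside fl26 (61.1%, against 49.4% of all genes), for 24 of 37 beside svb9 (64.9%, against 54.4%) and for 27 of 34 beside old wild type (79.4%, against 73.8%).

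Across the 34 lipid genes with all values, arrays of 1 number deviated together from their group means (r = 0.73 between fl26 and svb9, r = 0.62 between old wild type and fl26, r = 0.38 between old wild type and svb9). The genes are not independent, and the sources do not say if 1 young wild type pool served several arrays.

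On the dates of image extraction shared by different groups, the members' median difference was -0.08 for fl26 array 2 minus old wild type array 1 (14 of 35 higher), beside -0.0085 and 48.7% higher for all genes. It was -0.08 for svb9 array 2 minus old wild type array 2 (13 of 35 higher), beside -0.0037 and 49.2% for all genes. Both are single pairs of arrays.

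The median log2 ratio of 4 basal epithelial markers was 0.61 and 0.56 in fl26, -0.13 and 0.07 in svb9, and -0.14 and -0.22 in old wild type. The median of 7 macrophage markers was 0.36 and 0.09 in fl26, 0.06 and 0.01 in svb9, and 0.03 and 0.05 in old wild type. None of either list passed the adjusted limma test in fl26, with smallest adjusted p values of 0.0589 and 0.308.

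Medians of the remaining marker lists are given by array. Luminal epithelial markers (8 genes) had -0.19 and 0.0042 in fl26, -0.12 and 0.0044 in svb9, and 0.41 and 0.36 in old wild type. Endothelial markers (5 genes) had 0.26 and -0.13 in fl26, 0.049 and 0.0026 in svb9, and 0.020 and -0.050 in old wild type. Smooth muscle markers (5 genes) had -0.031 and -0.18 in fl26, -0.033 and -0.14 in svb9, and 0.20 and -0.27 in old wild type. Skeletal muscle markers (5 genes) had -0.14 and 0.11 in fl26, -0.058 and 0.073 in svb9, and 0.050 and -0.33 in old wild type. Erythrocyte markers (4 genes) had 0.069 and 0.23 in fl26, -0.030 and -0.025 in svb9, and 0.074 and -0.0092 in old wild type. For luminal markers both old wild type arrays were above young wild type, and for smooth muscle they lay on both sides. In these 5 lists 0 genes passed the adjusted limma test in any of the 3 groups.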
